A study of Mus musculus with 6 samples.

Results

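In R/R and WT mouse lungs, 10 genes that respond to temperature and protein stress were followed. They were 8 heat-shock chaperone genes driven by the transcription factor HSF1 (Hspa1a, Hspa1b, Hsph1, Dnajb1, Hsp90aa1, Hspa8, Hspb1 and Bag3) and 2 cold-inducible genes (Cirbp and Rbm3). They were taken by name from knowledge of the pathway, with earlier results of these data known. Shares of called genes in this and the other lists are therefore given as a description. The members are 10 of the 56262 genes in the count table, and all 10 had enough counts to be among the 17120 genes tested. R/R mice are homozygous for a knock-in of RBM47 K329R;K332R, which changes 2 lysines of the RNA-binding protein RBM47 to arginine, on a C57BL/6 background. WT mice were their littermates. All 6 animals (3 R/R, 3 WT) were 8 weeks of age and untreated, so the comparison asks how the genotypes differ at rest. The mice were kept on a fixed light and dark cycle at controlled room temperature, and the hour at which each lung was taken is not given in the sources used here.

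Cells answer heat and unfolded protein through HSF1, which is held in check by chaperones at rest and, when released, binds paired GAA and TTC units (heat-shock elements) in the promoters of chaperone genes. The chaperones then work as a machine: J-domain proteins such as Dnajb1 deliver unfolded clients to Hsp70 proteins, nucleotide exchange factors such as Hsph1 and Bag3 release them, and Hsp90 completes the folding of kinases and receptors. Cirbp and Rbm3 encode small RNA-binding proteins that accumulate on mild cooling and fall on warming, so that the daily rhythm of body temperature can move the chaperones and the cold-inducible genes in opposite directions.

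The 6 libraries held between 16501092 and 18141067 counted read pairs, and a single count corresponded to between 0.0552 and 0.0607 CPM, the count relative to a library size scaled by edgeR's TMM method. Libraries of one genotype differed by far more than counting noise (chi-square per degree of freedom between 5.71 and 9.16), so each was counted as a separate sample. Rbm47 itself did not pass the test (log2 fold change 0.10, adjusted p = 0.660, edgeR's quasi-likelihood test), and gene counts do not show the altered codons. Markers of alveolar type 2, alveolar type 1, club, ciliated and endothelial cells were found in all 6 lungs, which fits lung tissue, and the skeletal muscle markers were at or near 0, with Myh4 at 0 in every lung. Cell type markers differed between the genotypes. The summed level of 4 B cell markers, of which 3 were called as lower in R/R lungs, was 57.0 to 79.1 CPM in R/R and 114 to 142 CPM in WT lungs, that of 4 alveolar macrophage markers, of which 2 were called as higher, 713 to 814 and 435 to 610 CPM, and that of 4 red cell markers, of which 1 was called as lower, 1121 to 2092 and 2313 to 2996 CPM. The sum of 4 alveolar type 2 markers was 20862 to 22092 CPM in R/R and 16381 to 20326 CPM in WT lungs, and that of 4 T cell markers 14.5 to 19.0 and 21.8 to 30.2 CPM, also without overlap and with 0 called in either. Of the alveolar type 2 markers, only Sftpc, the most abundant, was itself without overlap, and Lamp3 had a log2 fold change of 0.05. All 4 T cell markers were without overlap, as were the alveolar macrophage markers other than Marco. The 4 alveolar type 1 markers overlapped in sum (2388 to 2695 and 2374 to 2487 CPM), with Aqp5 called as higher (log2 fold change 0.27, edgeR, adjusted p = 0.0459). The part of these markers in the differences given here was not tested, and in whole lung fewer cells of a type and less RNA per cell cannot be told apart.

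Hspa1a and Hspa1b encode the stress-inducible Hsp70 and are neighbouring copies on chromosome 17, so their promoters are shown first. The 250 bases before each start are given from the RefSeq table (GRCm38.p6), 5′ to 3′, at chr17:34972157-34972406 for Hspa1a and chr17:34959239-34959488 for Hspa1b, both on the minus strand. Capitals mark matches to GAANNTTC or TTCNNGAA, the shortest head-to-head and tail-to-tail pair of heat-shock units.
Hspa1a: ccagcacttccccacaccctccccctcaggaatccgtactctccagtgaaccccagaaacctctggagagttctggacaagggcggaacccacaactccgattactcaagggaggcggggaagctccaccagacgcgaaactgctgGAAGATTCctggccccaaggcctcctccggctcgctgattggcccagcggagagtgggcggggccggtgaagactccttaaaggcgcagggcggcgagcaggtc
Hspa1b: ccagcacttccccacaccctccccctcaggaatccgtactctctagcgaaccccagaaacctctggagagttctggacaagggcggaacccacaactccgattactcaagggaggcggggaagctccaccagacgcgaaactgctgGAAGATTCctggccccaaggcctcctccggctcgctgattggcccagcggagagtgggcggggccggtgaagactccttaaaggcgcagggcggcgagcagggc
The windows of 300 bases, of which 50 lie after the start, were identical at 296 positions. The 4 differences, counted from 1 at the 5′ end with the base of Hspa1a first, were C44T, T47C, T249G and C276T. The GAAGATTC match, 104 to 97 bases before the start, is in both copies.

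Heat-shock units were also looked for in the other genes. RefSeq promoters were found for 7 of the 10 genes, and there was no entry for Hsp90aa1, Hspa8 and Rbm3. Either paired unit, which reads the same on both strands, was present in 5 of these 7 genes (Hspa1a, Hspa1b, Hsph1, Hspb1 and Bag3). In Bag3 the match lies after the start. Of all 32851 promoter windows of this length, 15.1% had a match. That share is per window, whereas the 7 genes have 10 windows and include the near-identical Hspa1 copies. Neither paired unit was found in the windows of Dnajb1 and Cirbp, each of which has 2 annotated starts. Hsph1 was the only 1 of the 7 genes with 3 units in a row, overlapping TTCTGGAA and GAAAGTTC after the start, which 0.603% of all windows have. Hspb1 (chr5:135887669-135887918, plus strand) had 2 paired units at 117 and 97 bases before its start and is shown for that reason, with the matches in capitals.
Hspb1: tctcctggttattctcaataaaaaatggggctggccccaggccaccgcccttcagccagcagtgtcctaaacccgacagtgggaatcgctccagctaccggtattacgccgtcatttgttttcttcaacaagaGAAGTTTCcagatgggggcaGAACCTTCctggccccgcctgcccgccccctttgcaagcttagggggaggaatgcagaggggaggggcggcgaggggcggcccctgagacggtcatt
A match is a description of letters, and no binding was measured here.

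The near-identity of the copies also limits the counts. Of the 150-base windows of the longest coding transcript, 46.0% in Hspa1a and 40.5% in Hspa1b occur in another annotated transcript, among them transcripts of the other copy, Hspa1l, Gm10501 and Gm20481. Counting left out pairs with more than 1 mapping place, so the values of both genes rest on what is unique to each and can understate their levels. Exons of Gm20481, on the opposite strand, cover 564 of the 2967 exonic bases of Hspa1a (19.0%), and counting ignored strand. Windows shared with Gm20481 at that place need not map to several places. The 46.0% for Hspa1a can therefore overstate what was left out for that reason. Shared windows were also frequent in Hspa8 (56.0%), Hspb1 (36.6%) and Hsp90aa1 (36.2%), all with pseudogenes. They were rare in Rbm3 (2.42%) and absent from Hsph1, Dnajb1, Bag3 and Cirbp. Exons of Hspa8 also hold the small nucleolar RNA genes Snord14c, Snord14d and Snord14e, with 86, 86 and 90 shared bases.

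Of the 10 genes, 2 rose in R/R lungs and none fell. The inducible Hsp70 gene Hspa1b was 2.0-fold and the cold-inducible gene Rbm3 1.28-fold higher in R/R lungs. By edgeR's quasi-likelihood test with Benjamini-Hochberg adjustment over the 17120 tested genes at 0.05, 1.75% of all genes were called, 0.648% as higher and 1.10% as lower in R/R lungs. The same 2 genes were the ones in which every R/R lung lay above every WT lung, which was true of 9.17% of all tested genes, and no member lay wholly below, against 9.50%. At an unadjusted p of 0.05, 4 of the 10 passed (Hspa1a, Hspa1b, Dnajb1 and Rbm3), compared with 14.2% of all tested genes. The median log2 fold change was 0.12 over the 8 chaperones and 0.00 over all tested genes.

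**Figure D1:**
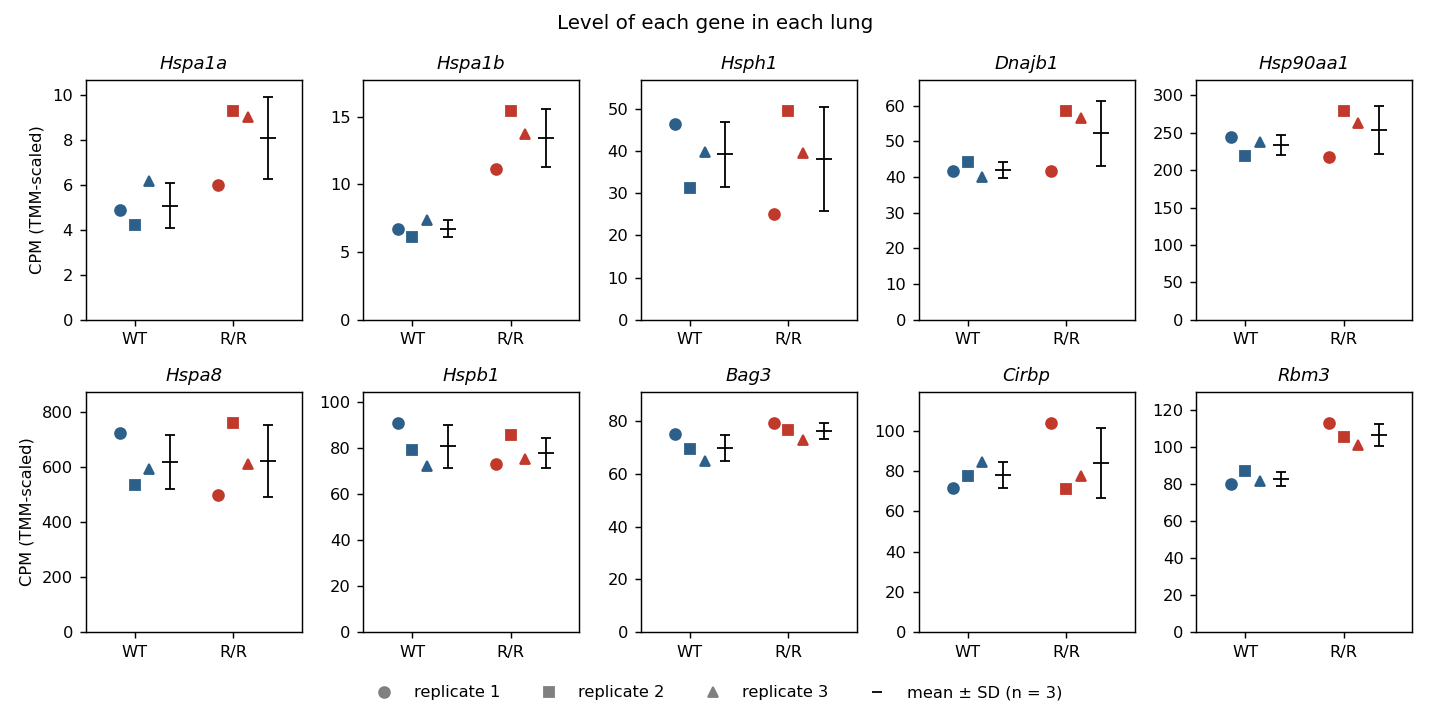
Level of each gene in CPM (linear axes from 0) in the 3 WT (blue) and 3 R/R lungs (red), with the replicate number as the symbol and the mean and SD (n = 3) as a bar. Hspa1b and Rbm3 are the panels in which the R/R lungs all lie above the WT lungs, and R/R replicate 1 is the lowest R/R lung in every chaperone panel but Bag3 and the highest for Bag3, Cirbp and Rbm3.

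Hspa1b (ENSMUSG00000090877.3, chromosome 17 from 34956436 to 34959238, minus strand, GRCm38) encodes an Hsp70 that binds unfolded proteins after stress. It was counted 201, 258 and 233 times in R/R replicates 1, 2 and 3 and 110, 111 and 126 times in WT replicates 1, 2 and 3. Scaled for depth, it was at 11.2, 15.4 and 13.7 CPM in R/R lungs and 6.68, 6.13 and 7.38 CPM in WT lungs. All R/R lungs were above all WT lungs, with replicate 1 the lowest of the R/R lungs. R/R lungs averaged 13.4 ± 2.15 CPM and WT lungs 6.73 ± 0.626 CPM (SD, n = 3 per genotype). The log2 fold change was 1.0 (standard error 0.15, 95% interval 0.67 to 1.32, adjusted p = 0.0102 by edgeR). An exact two-sided permutation test over the lungs gave p = 0.1, the smallest value that 3 against 3 allow. Without R/R replicate 2 the adjusted p was 0.0518 and the log2 fold change 0.89.

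Hspa1a (ENSMUSG00000091971.3, chromosome 17 from 34969190 to 34972156, minus strand) had fewer counts, 108, 155 and 153 in R/R and 80, 76 and 105 in WT lungs. Its level was 5.99, 9.27 and 9.01 CPM in R/R replicates 1 to 3 and 4.86, 4.19 and 6.15 CPM in WT replicates 1 to 3. R/R replicate 1 lay below WT replicate 3, so the genotypes overlapped. R/R lungs averaged 8.09 ± 1.82 CPM and WT lungs 5.07 ± 0.993 CPM (SD, n = 3 per genotype). The log2 fold change of 0.67 (standard error 0.21, 95% interval 0.22 to 1.12) did not pass the threshold (edgeR, adjusted p = 0.148). With the 2 copies summed to 1 gene, the level was 17.1, 24.7 and 22.7 CPM in R/R and 11.5, 10.3 and 13.5 CPM in WT lungs, without overlap. The sum was higher in R/R lungs by 0.87 on the log2 scale (standard error 0.15, edgeR, adjusted p = 0.0165).

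Dnajb1 (ENSMUSG00000005483.10, chromosome 8 from 83608193 to 83612653, plus strand), the J-domain partner that loads clients onto Hsp70, reached 41.8, 58.5 and 56.5 CPM in R/R replicates 1 to 3 and 41.7, 44.3 and 39.9 CPM in WT replicates 1 to 3. R/R replicates 2 and 3 stood above every WT lung, and R/R replicate 1 lay among them. Dnajb1 had a log2 fold change of 0.31 (standard error 0.11, 95% interval 0.07 to 0.56, adjusted p = 0.211 by edgeR). When R/R replicate 1 was left out, it was 0.45 with an adjusted p of 0.0247. Dnajb1 was not called with any other lung left out. In those fits its log2 fold change was as low as 0.23 and its adjusted p as high as 0.518 (edgeR).

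Hsph1 (Hsp110, ENSMUSG00000029657.15, chromosome 5 from 149614287 to 149636376, minus strand), the exchange factor that releases clients from Hsp70, varied most of the 10 genes among R/R lungs. It was at 25.1, 49.5 and 39.6 CPM in R/R lungs and at 46.5, 31.3 and 39.8 CPM in WT lungs, so that the highest and the lowest lung were both R/R. The coefficient of variation was 32.3% in R/R and 19.5% in WT lungs. The log2 fold change was -0.04, with a 95% interval from -0.48 to 0.40 (edgeR, adjusted p = 0.957), and it was above 0 without R/R replicate 1 (0.18) or WT replicate 1 (0.09). Bag3 (ENSMUSG00000030847.8, chromosome 7 from 128523616 to 128546981, plus strand), which links Hsp70 to autophagy and is a sensitive HSF1 target, was at 79.1, 76.6 and 72.9 CPM in R/R and at 75.0, 69.4 and 64.9 CPM in WT lungs. Its genotypes overlapped through WT replicate 1, with a log2 fold change of 0.13 (95% interval -0.02 to 0.28, edgeR, adjusted p = 0.436).

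**Figure D2:**
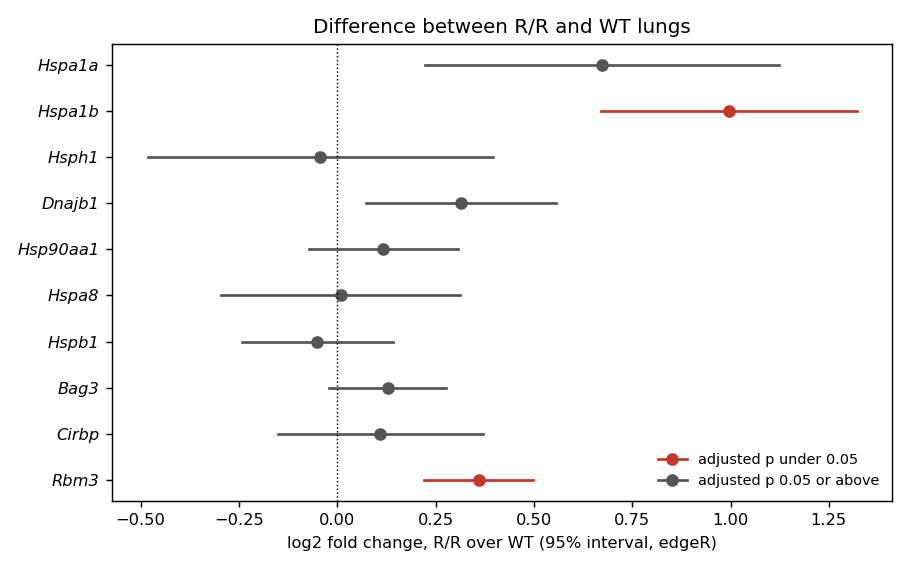
Log2 fold change of each gene, R/R over WT, with its 95% interval from edgeR. Hspa1b (1.0) and Rbm3 (0.36) passed an adjusted p of 0.05 and are drawn in red. The intervals of Hspa1a and Dnajb1 also lie above 0 but did not pass after adjustment, and the other 6 intervals include 0.

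The abundant chaperones differed little in the mean. Hspa8 (ENSMUSG00000015656.17, chromosome 9 from 40800984 to 40810087, plus strand), the constitutive Hsp70 of unstressed cells, was at 498, 760 and 611 CPM in R/R and at 726, 537 and 595 CPM in WT lungs. Its log2 fold change was 0.01, with a 95% interval from -0.30 to 0.31 (edgeR, adjusted p = 0.987), which leaves room for a difference of either sign. Hsp90aa1 (ENSMUSG00000021270.13, chromosome 12 from 110690605 to 110702728, minus strand), the stress-inducible cytosolic Hsp90, was at 218, 279 and 264 CPM in R/R and at 244, 218 and 238 CPM in WT lungs (log2 fold change 0.12, 95% interval -0.07 to 0.31, edgeR, adjusted p = 0.608). Hspb1 (ENSMUSG00000004951.10, chromosome 5 from 135887919 to 135889563, plus strand), a small heat-shock protein that keeps unfolded proteins soluble, was at 73.0, 85.6 and 75.5 CPM in R/R and at 90.9, 79.2 and 72.4 CPM in WT lungs (log2 fold change -0.05, 95% interval -0.24 to 0.14, edgeR, adjusted p = 0.859). In all 3 genes the lungs of the genotypes were interleaved.

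Rbm3 (ENSMUSG00000031167.16, chromosome X from 8138975 to 8145880, minus strand), whose product binds RNA and sustains translation in the cold, was the other gene that rose. It was counted 2032, 1765 and 1712 times in R/R and 1315, 1579 and 1395 times in WT lungs. The levels were 113, 106 and 101 CPM in R/R replicates 1 to 3 and 79.9, 87.1 and 81.7 CPM in WT replicates 1 to 3. The 2 groups were separate and narrow, with coefficients of variation of 5.65% and 4.57%. R/R lungs averaged 106 ± 6.01 CPM and WT lungs 82.9 ± 3.79 CPM (SD, n = 3 per genotype). The log2 fold change was 0.36 (standard error 0.06, 95% interval 0.22 to 0.50, adjusted p = 0.0213 by edgeR). An exact two-sided permutation test gave p = 0.1, the smallest possible. The adjusted p was 0.0596 without R/R replicate 1, 0.0738 without R/R replicate 2 and 0.101 without WT replicate 1, while the log2 fold change stayed between 0.31 and 0.40 with each lung left out. The antisense gene Rbm3os covers 94 of its exonic bases (2.0%).

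Cirbp (ENSMUSG00000045193.13, chromosome 10 from 80165985 to 80172786, plus strand), the other cold-inducible RNA-binding protein, did not pass the test. Its level was 104, 71.0 and 77.8 CPM in R/R replicates 1 to 3 and 71.9, 77.7 and 84.8 CPM in WT replicates 1 to 3. R/R replicate 1 was the highest of the 6 lungs and R/R replicate 2 the lowest, with a coefficient of variation of 20.6% in R/R and 8.29% in WT lungs. The log2 fold change was 0.11 (standard error 0.12, 95% interval -0.15 to 0.37, edgeR, adjusted p = 0.753), and without R/R replicate 1 it was -0.07. The difference between Rbm3 and Cirbp in their response to genotype was not tested.

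**Figure D3:**
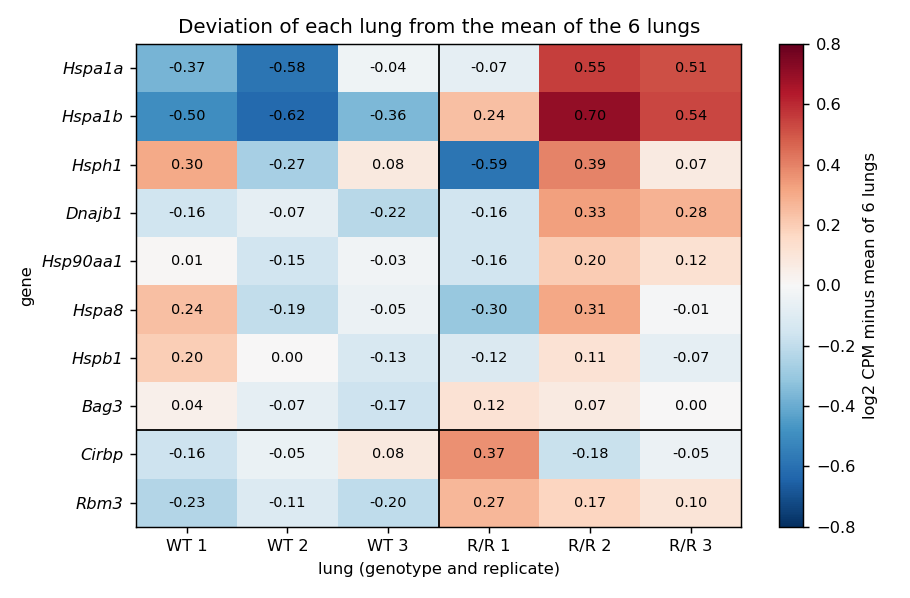
Deviation of each lung from the mean of the 6 lungs on the log2 CPM scale, by gene (rows) and lung (columns), in red for above and blue for below. Hspa1a, Hspa1b and Rbm3 change colour mainly with genotype, whereas Hsph1 and Hspa8 are high in R/R replicate 2 and WT replicate 1 and low in R/R replicate 1 and WT replicate 2.

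The genes fell into different orders over the lungs. R/R replicate 2 was above the mean of the 6 lungs in all 8 chaperones, with a median deviation of 0.32 on the log2 scale, and R/R replicate 3 was above it in 6 (0.10). R/R replicate 1 was above it in 2, Hspa1b and Bag3, with a median deviation of -0.14. The WT lungs were above it in 5, 1 and 1 chaperones, with median deviations of 0.03, -0.17 and -0.09. In each genotype the lung with the highest Hsph1 and Hspa8 (R/R replicate 2 and WT replicate 1) had the lowest Cirbp. In R/R lungs the lung with the lowest Hsph1 and Hspa8 (R/R replicate 1) also had the highest Cirbp, but in WT lungs Hsph1 and Hspa8 were lowest in replicate 2 and Cirbp was highest in replicate 3. Rbm3 was above its mean in all 3 R/R lungs, including replicate 2, in which Cirbp was lowest. These are orders among 3 lungs of a genotype, given as a description.

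Per unit of length the genes spanned a wide range. Divided by the exonic length in the table, the mean level in WT lungs was 144 ± 22.5 CPM per kb for Hspa8, 78.4 ± 9.05 for Hspb1, 59.4 ± 3.42 for Hsp90aa1, 30.0 ± 2.49 for Cirbp and 27.2 ± 1.97 for Bag3 (SD, n = 3). It was 17.6 ± 0.807 for Rbm3, 13.1 ± 0.689 for Dnajb1, 5.40 ± 1.05 for Hsph1, 2.40 ± 0.224 for Hspa1b and 1.71 ± 0.335 CPM per kb for Hspa1a (SD, n = 3). In WT lungs only Cirbp and Bag3 overlapped among neighbours in this order. The order of the means was the same in R/R lungs, where the ranges of Hspb1 and Hsp90aa1, of Cirbp and Bag3, and of Hsph1 and Hspa1b overlapped. Hspa1b reached 4.79 ± 0.767 CPM per kb and Rbm3 22.6 ± 1.28 CPM per kb in R/R lungs (SD, n = 3). Exonic length adds the exons of all annotated transcripts (7266 bases for Hsph1), so these levels are approximate, and those of the Hspa1 copies leave out shared pairs.

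**Figure D4:**
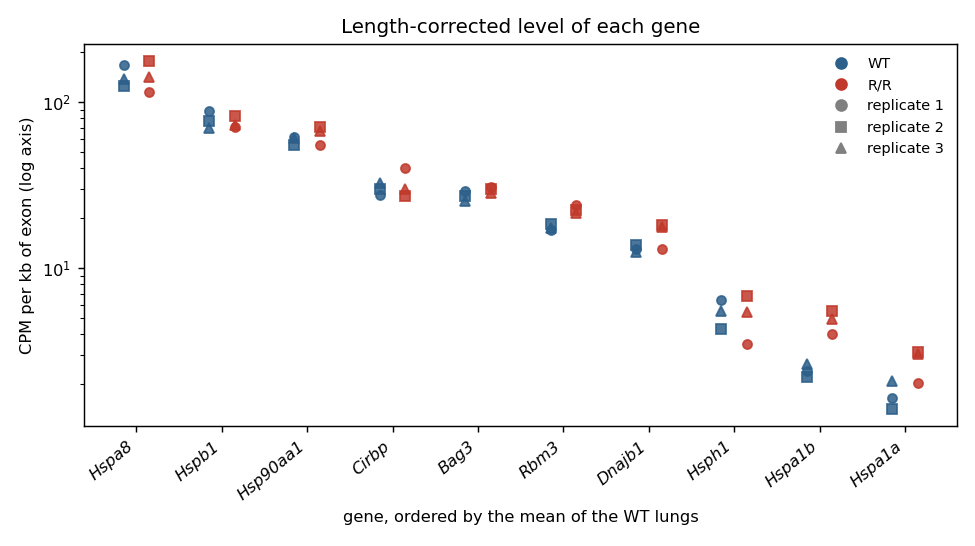
Level of each gene per kb of exon (log axis) in WT (blue) and R/R lungs (red), with the replicate as the symbol and genes ordered by the mean of the WT lungs. Hspa8 is the most abundant at 144 CPM per kb in WT lungs, and the inducible copies Hspa1b and Hspa1a are the lowest at 2.40 and 1.71.

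The wider chaperone network was described by 9 lists of known genes other than the members, with 79 of 81 genes tested. No gene of these lists was called as higher and 2 were called as lower in R/R lungs, with 12 at an unadjusted p of 0.05. Over all tested genes 0.648% were called as higher and 1.10% as lower, with 14.2% at an unadjusted p of 0.05 (edgeR). The median log2 fold change over the 79 genes was 0.02, and 47 were above and 32 below 0. Of all 17120 tested genes, 8769 were above and 8351 below 0. Of the HSF factors, 0 of 4 tested genes were called. The master regulator Hsf1 had a log2 fold change of -0.07 (edgeR, adjusted p = 0.689) and its partner Hsf2 one of 0.24 (adjusted p = 0.370), and Hsf5 had at most 4 counts in any lung. Of 8 other J-domain proteins, 0 were called and 7 were above 0. The nearest to a call were Dnajb4 (log2 fold change 0.31, adjusted p = 0.134) and Dnaja2 (0.20, adjusted p = 0.221), in both of which every R/R lung lay above every WT lung.

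Hsp90 and its cochaperones, which mature client proteins downstream of Hsp70, gave 0 calls among 17 genes, 8 above and 9 below 0, with a median of -0.01. The 2 largest differences there were Bag1 (log2 fold change 0.16, edgeR, adjusted p = 0.328) and Ppid (-0.12, adjusted p = 0.605). The 8 subunits of TRiC, the ring chaperonin that folds actin and tubulin, gave 0 calls, with Cct6a and Cct2 at 0.10 each (adjusted p = 0.462 and 0.437). The 8 mitochondrial chaperones and proteases gave 0 calls and were all above 0, with a median of 0.08, Clpp at 0.16 and Trap1 at 0.12 (adjusted p = 0.547 and 0.410). Of the other small heat-shock proteins 5 of 6 were tested and 0 called, with Hspb8, a partner of Bag3, at 0.31 (adjusted p = 0.121) and Hspb7, a muscle protein, at -0.27 (adjusted p = 0.622). The summed level of 6 cardiac muscle markers was 57.4 to 110 CPM in R/R and 79.4 to 234 CPM in WT lungs, and its part in Hspb7 was not tested. In the ubiquitin and aggregate list 0 of 6 were called, with Hdac6 at -0.30 (adjusted p = 0.193) and Ubb at 0.10 (adjusted p = 0.732).

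The 2 called genes came from the other Hsp70 relatives and from the endoplasmic reticulum. Hspa12b, a distant Hsp70 relative known from endothelial cells, was at 99.4, 114 and 117 CPM in R/R and at 168, 146 and 135 CPM in WT lungs. It fell by 0.44 on the log2 scale (standard error 0.09, edgeR, adjusted p = 0.0341). Without any 1 lung other than WT replicate 3 its adjusted p rose to between 0.0665 and 0.117. The 4 endothelial markers summed to 3273 to 3445 CPM in R/R and 3365 to 3830 CPM in WT lungs. Its relative Hspa12a was at -0.19 (adjusted p = 0.354), and the other 5 genes of the Hsp70 and Hsp110 list were between 0.02 and 0.17.

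Serpinh1 (Hsp47), the collagen chaperone of the endoplasmic reticulum and itself a known heat-inducible target of HSF1, was at 345, 394 and 366 CPM in R/R and at 537, 554 and 459 CPM in WT lungs, without overlap. It fell by 0.49 on the log2 scale (standard error 0.08, edgeR, adjusted p = 0.0158), and its adjusted p was 0.0525, 0.0662 and 0.0541 without R/R replicate 3, WT replicate 1 and WT replicate 2. The 4 fibroblast markers summed to 1804 to 2008 CPM in R/R and 2000 to 2328 CPM in WT lungs, and their part in this difference was not tested. Of the 16 ER chaperones, most of them known for the unfolded protein response, 12 were below 0 and 1 was called, with a median log2 fold change of -0.13. Calr, a lectin chaperone of glycoproteins, was at -0.28 (adjusted p = 0.0840) with every R/R lung below every WT lung.

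**Figure D5:**
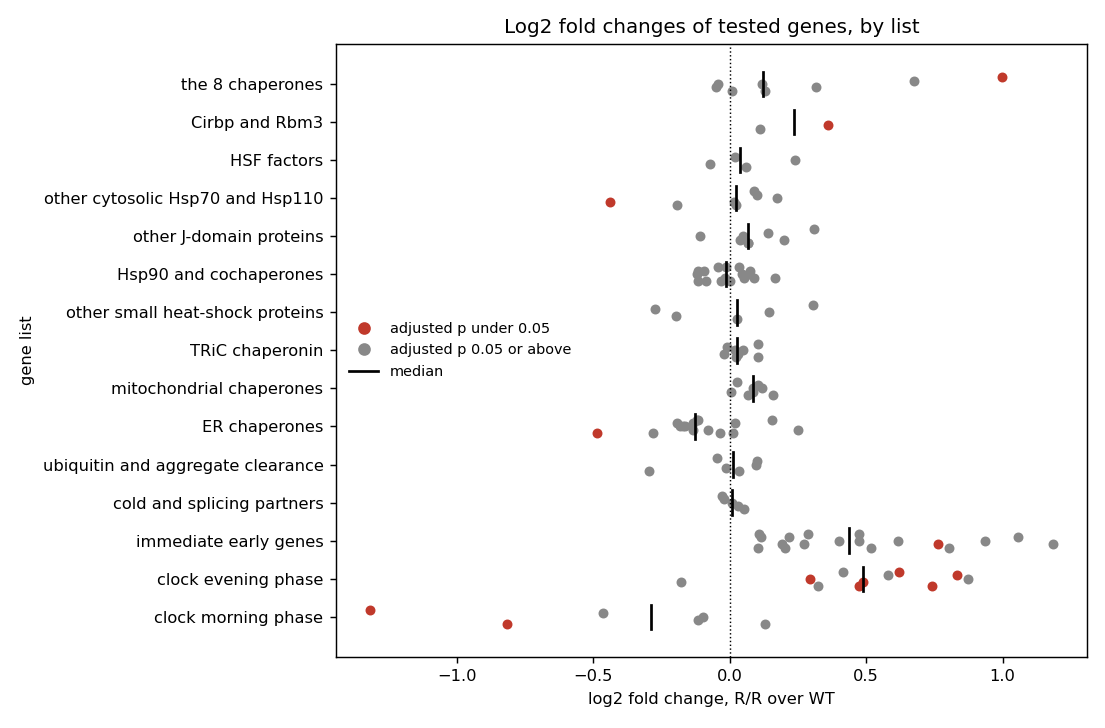
Log2 fold change, R/R over WT, of every tested gene in each list (points, red where the adjusted p from edgeR was under 0.05), with the median of the list as a bar. The median of the 8 chaperones is 0.12 and that of Cirbp and Rbm3 0.23. The other chaperone lists centre near 0 apart from the ER chaperones at -0.13. The immediate early genes lie above 0 with a median of 0.44, and the clock lists lie on opposite sides, at 0.49 and -0.29.

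Genes that report on cooling, time of day and handling were set beside the members. In a list of 5 other RNA-binding and cold-linked genes 0 were called, with Ybx3 at -0.03 (edgeR, adjusted p = 0.875). All 18 immediate early genes, which respond within minutes to handling or dissection, were above 0, with a median log2 fold change of 0.44. Of these 1 was called, Nr4a1, at 58.9, 90.5 and 74.2 CPM in R/R and 41.4, 44.4 and 45.8 CPM in WT lungs (log2 fold change 0.76, edgeR, adjusted p = 0.0148, and 0.0669 without WT replicate 1). Fos and Egr1 were at 1.19 and 1.06 (adjusted p = 0.0683 and 0.0673), each without overlap of the genotypes. Of 9 alternative fits on all lungs, Fos was called in 3 (limma-voom, no filter on low counts, and replicate number as a block). Egr1 was called in 2 (no filter on low counts, and replicate number as a block). With 1 lung left out, each was called only without WT replicate 3.

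The called genes of the clock lists lay on opposite sides of 0. Of 11 genes of the evening phase 6 were called as higher in R/R lungs (Dbp, Tef, Nr1d2, Bhlhe41, Per3 and Cry2), and of 6 genes of the morning phase 2 were called as lower (Npas2 and Arntl). Dbp, Tef, Nr1d2, Bhlhe41 and Npas2 were called with any 1 lung left out. Per3 lost its call when WT replicate 1 or either of R/R replicates 2 and 3 was left out (edgeR, adjusted p between 0.0627 and 0.0960), and Cry2 was called only without WT replicate 3 (otherwise 0.0534 to 0.132). Arntl was called only without R/R replicate 1 or WT replicate 2 (otherwise 0.0636 to 0.179), and not with limma-voom on all lungs (0.0578). Dbp, an output factor of the clock, was at 119, 135 and 132 CPM in R/R and 66.8, 84.7 and 65.5 CPM in WT lungs (log2 fold change 0.83, edgeR, adjusted p = 0.00193). Npas2, from the morning-phase list, was at 2.50, 2.81 and 2.59 CPM in R/R and 5.53, 6.57 and 7.61 CPM in WT lungs (log2 fold change -1.32, adjusted p = 0.00893). Per1, a period gene that also has heat-shock and glucocorticoid inputs, was at 48.7, 149 and 115 CPM in R/R and 81.4, 51.8 and 37.6 CPM in WT lungs (log2 fold change 0.87, adjusted p = 0.257). Like Hsph1 and Hspa8 it was highest in R/R replicate 2, lowest of the R/R lungs in replicate 1, and highest of the WT lungs in replicate 1. Of the WT lungs, however, Per1 was lowest in replicate 3, and Hsph1 and Hspa8 were lowest in replicate 2. The part of sampling time, handling or temperature in the levels of Hspa1b and Rbm3 was not tested, and with genotype as the only label they cannot be told apart from genotype.

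Among genes whose mean log2 CPM was 1 or more, those whose levels over the 6 lungs were most like the mean standardised level of the 8 chaperones were Klf6, Msl2, Mtfr1, 1810013L24Rik and Nt5dc2, with Pearson's r between 0.981 and 0.992. None of these 5 was called between the genotypes (edgeR, adjusted p between 0.383 and 0.662). Those most like the mean of Cirbp and Rbm3 were Pcdhga5, Gm38253, Lpl, Dbi and Ldhd, with r between 0.979 and 0.988 and adjusted p between 0.161 and 0.629. Each r rests on 6 lungs and was among the highest over all such genes, so it is given as a description.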

How the data were processed

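Lungs of 3 R/R and 3 WT mice were sequenced as RNA, in read pairs of 150 bases. Per the file headers, the authors counted read pairs over exons with featureCounts 2.0.1 and GENCODE M25, without strand and without pairs that map to several places. The deposited values are raw counts per gene. The column of WT replicate 3 is recorded as an expected count, since an automatic check misread the comment line of the deposited table, but it holds whole raw counts like the others and was not rounded. The submitters' processing notes name HISAT2 2.1.0, mm10 (GRCm38) and DESeq2, while the supplement names edgeR. RNA extraction is given as RNeasy in the labels and Trizol in the supplement.

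Symbols came from GENCODE M21 by gene identifier (55141 of 56262 matched). filterByExpr (at least 10 counts, 15 in total) chose the genes to test, TMM scaled the libraries, and glmQLFit with glmQLFTest compared them in edgeR 4.0.16 (R 4.3.3), with Benjamini-Hochberg adjustment over the 17120 tested genes. A standard error is the log2 fold change over the root of the F statistic. Intervals at the level 0.95 use the t quantile of the fit. Permutation tests used log2 CPM (prior count 0.5). Named from the other lists were called genes and, per list, the 2 with the largest difference at a mean log2 CPM of at least 1. A gene so chosen is not reported here. The members and lists were chosen with earlier results of these data known. Alternatives were DESeq2 1.42.0, limma-voom (limma 3.58.1), other scalings and filters, a replicate block, summed Hspa1 copies and each lung left out. Tests were checked on simulated counts, and the outcome of that check is not given here. P-values measure the spread between these mice, described as biological replicates.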

Additional observations from a re-analysis of the deposited data

How the results depend on the processing

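Hspa1b and Rbm3 were the genes called among the 10 under DESeq2, limma-voom, no TMM, RLE factors, upper-quartile factors, a filter of 1 CPM in 3 libraries and the replicate block. With no filter on low counts 4 were called, Hspa1a (adjusted p = 0.00513) and Dnajb1 (0.00551) in addition, and edgeR's prior degrees of freedom were then infinite, against 7.66. Counts over all genes moved from 300 to 530 with DESeq2 and 1109 with no filter, and the other chaperone genes called moved from 2 to 6 with no filter. The cause was not tested. With each lung left out, between 65 and 621 genes, between 0 and 2 members (0 without R/R replicate 2, 1 without WT replicate 1) and between 0 and 3 other chaperone genes were called, and the fits without a lung have fewer samples. The log2 fold change of Hspa8 turned to -0.0010 with limma-voom and -0.00044 with the replicate block. With each lung left out it ranged from -0.16 to 0.14 for Hspa8, -0.28 to 0.18 for Hsph1, -0.13 to 0.039 for Hspb1, -0.072 to 0.22 for Cirbp and -0.029 to 0.20 for Ubb. Replicate numbers were shared by the genotypes, and whether they pair the lungs is not given. Same-numbered lungs correlated at 0.018, 0.017 and 0.022, small values but in each case the highest for that lung. With 3 lungs a genotype these values cannot decide whether the lungs were paired. The block gave 446 called genes over all, 2 members and 2 other chaperone genes. The scalings moved the median of all genes by at most 0.0034. At 76 to 258 counts a lung, the Hspa1 copies had the fewest counts of the 10 genes. With 3 lungs a genotype, the standard error of the log2 fold change was 0.21 for Hspa1a, 0.15 for Hspa1b and 0.20 for Hsph1.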
